A study of Mus musculus with 13 samples.

Results

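Of the 24532 genes in the deposited tables, 8 genes of the complement system were followed: the 3 chains of C1q (C1qa, C1qb and C1qc), the central component C3, the alternative pathway genes Cfb (factor B) and Cfp (properdin), and the anaphylatoxin receptors C3ar1 and C5ar1. They were picked by gene symbol, with earlier results of these data known. Complement is a set of plasma and cell-bound proteins that mark microbes and dying cells for removal, and macrophages are a source of several of them in tissue. Its early part includes, among others, the C1q recognition molecule and the alternative pathway, in which factor B and properdin build the enzyme that cleaves C3. The small fragments released from C3 and C5 act on cells through G protein-coupled receptors.

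The levels were read in 13 libraries of 7 subsets sorted from bone marrow cultures of C57BL/6 mice of 8 to 14 weeks, without any genetic change or stimulus named in the labels. FL-BM culture, which received FLT3L (10 μg/ml) as the factor that drives classical dendritic cells (cDCs), gave 9 libraries, and GM-BM culture, which received GM-CSF (0.5 μg/ml), gave 4 libraries, both after 8 to 10 days of culture. The FL subsets were CD115+CX3CR1+ cells of the cDC2 gate (non-DCs), CD83- immature and CD83+ mature FL-cDC2s, and CD83- immature and CD83+ mature FL-cDC1s, these 4 being CD115-CX3CR1-, and the GM subsets were GM-DCs, sorted for high MHCII, and GM-Macs, sorted for intermediate MHCII. Mature FL-cDC1s were read in 1 library and the other subsets in 2 each, and no source states that the libraries of a subset came from separate cultures or animals, so that a p-value speaks for the spread among libraries, possibly a technical one.

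Each library held 46042095 to 71330242 reads in genes. The 9 listed macrophage markers, among them Csf1r, Adgre1, Mertk and Cd68, summed to 41197 to 47733 FPKM (fragments mapped to a gene, scaled to transcript length and to the library's mapped total) in non-DCs and 40961 to 74584 in GM-Macs, against 1139 to 1930 in GM-DCs, 998 to 1913 in immature FL-cDC2s, 4040 to 4485 in immature FL-cDC1s, 1171 in mature FL-cDC1s and 48.5 to 49.7 in mature FL-cDC2s. The 6 mature DC markers (Ccr7, Cd83, Fscn1, Ccl22, Relb and Socs2) summed to 10958 to 18731 FPKM in both mature FL-cDC subsets and GM-DCs and to 151 to 815 in the other subsets. The 11 neutrophil markers summed to 345 to 466 FPKM in non-DCs and 382 to 472 in GM-Macs, most of it from Mmp8 (means of 405 and 418), against 11.4 to 16.6 in GM-DCs and no more than 8.32 in any FL cDC library. Ly6g and Elane, which define neutrophils and their precursors, were under 0.1 FPKM in the mean of each of the 7 subsets, and the part of the neutrophil markers in the results was not tested.

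The 3 C1q genes lie next to each other on the minus strand of chromosome 4, within 18719 bases from 136880126 to 136898844 (C1qb, C1qc and C1qa in the order of the coordinates, RefSeq GRCm38.p6). C3 (chromosome 17, 57203967 to 57228136) and Cfb (chromosome 17, 34856374 to 34862514) lie far apart on the same chromosome, C3ar1 on chromosome 6 (122847140 to 122856157), C5ar1 on chromosome 7 (16246743 to 16259540) and Cfp on the X chromosome (20925454 to 20931555). All 8 genes are on the minus strand. Annotated microRNA genes overlap C3 (Mir6978) and Cfb (Mir6972).

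Promoter windows of 250 bases before the annotated start were found for 6 of the 8 genes in RefSeq GRCm38.p6, with none for C1qa and Cfb. Shown here are those of C1qb and C1qc, whose levels ran in parallel over the subsets, and of Cfp, whose levels did not follow them. Capitals mark the letters GAGGAA of a PU.1 motif and TGCTGA of a MAF motif, searched on both strands, so that TTCCTC and TCAGCA also count. The last 22 bases of the C1qc window lie within the annotated gene.
C1qb, chr4:136886201-136886450, minus strand: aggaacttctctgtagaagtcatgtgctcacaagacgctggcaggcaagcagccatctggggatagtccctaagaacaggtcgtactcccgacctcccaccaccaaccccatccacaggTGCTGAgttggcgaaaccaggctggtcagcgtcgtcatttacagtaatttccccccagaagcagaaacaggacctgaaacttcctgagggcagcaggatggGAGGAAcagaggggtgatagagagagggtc
C1qc, chr4:136892915-136893164, minus strand: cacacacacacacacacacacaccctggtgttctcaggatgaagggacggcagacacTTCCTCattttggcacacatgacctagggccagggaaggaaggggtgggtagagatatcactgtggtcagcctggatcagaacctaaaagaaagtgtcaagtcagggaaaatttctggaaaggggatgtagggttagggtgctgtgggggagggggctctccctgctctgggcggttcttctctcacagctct
Cfp, chrX:20931556-20931805, minus strand: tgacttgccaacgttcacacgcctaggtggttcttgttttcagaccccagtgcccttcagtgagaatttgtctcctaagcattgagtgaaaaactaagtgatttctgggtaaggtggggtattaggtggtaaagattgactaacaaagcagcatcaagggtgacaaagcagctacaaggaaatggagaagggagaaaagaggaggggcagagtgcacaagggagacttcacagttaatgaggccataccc

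The PU.1 letters were present in the C1qb and C1qc windows, 2 of the 6, and in 23.3% of all 32851 promoter windows of the same length. The MAF letters were present in 4 of the 6 (C1qb, C3, C3ar1 and C5ar1), against 16.1% of all windows, the match of C5ar1 lying in the 202 bases of its window that are inside the annotated gene. An NF-kB motif was in C1qb, C1qc and C3 (17.6% of all windows), TTGCNNAA, read as a C/EBP motif, in C3 (9.56%), and neither an interferon response motif (2.98%) nor TTCNNNGAA, read as a STAT motif (7.02%), was in any of the 6. The Cfp window held none of the 6 motifs. These matches describe letters and not binding.

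C1q chains. C1qa, C1qb and C1qc encode the chains that assemble in equal numbers into C1q, which binds antibody complexes and dying cells. C1qb stood at 578 and 454 FPKM in the 2 non-DC libraries and at 1397 and 3456 in GM-Macs. In GM-DCs it was 67.7 and 330, in immature FL-cDC2s 1.12 and 16.6, and in mature FL-cDC2s 0.228 and 0.0435. Non-DCs and GM-Macs, called macrophage-like here for the macrophage markers above, were thus above every DC library without overlap, and GM-DCs came next. The name does not speak for lineage, since the study concludes that the non-DCs are precursors of cDC2s. The cDC2 markers of both subsets were also above those of GM-DCs, and Csf1r of the macrophage list encodes the CD115 of the gate. For C1qb, the replicates of GM-Macs, GM-DCs and immature FL-cDC2s were themselves far apart, replicate 2 being the higher one in each. C1qb was 1.51 FPKM in the mature FL-cDC1 library, within the range of immature FL-cDC2s, and 0.0781 and 0 in immature FL-cDC1s.

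C1qc followed the same order: non-DC libraries held 385 and 289 FPKM, GM-Mac libraries 920 and 2323, GM-DC libraries 44.5 and 188, and immature FL-cDC2 libraries 0.804 and 11.3. It had 0 reads in both libraries of mature FL-cDC2s and of immature FL-cDC1s, and 38 reads, or 0.637 FPKM, in the mature FL-cDC1 library. C1qa was the lowest chain in each of these subsets, non-DC libraries holding 71.3 and 56.4 FPKM, GM-Mac libraries 532 and 1329, GM-DC libraries 15.9 and 86.7, and immature FL-cDC2 libraries 0.285 and 2.00. For C1qa the GM-DC libraries lay on either side of the non-DC libraries, so that both subsets overlapped, whereas for C1qb and C1qc non-DCs were above GM-DCs without overlap. C1qa had 0 reads in mature FL-cDC2s, 2 and 0 reads in immature FL-cDC1s and 13 reads in mature FL-cDC1s. By mean FPKM, C1qb ranked 19 and C1qc 28 among all genes in GM-Macs, and 96 and 165 in non-DCs.

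**Figure D1:**
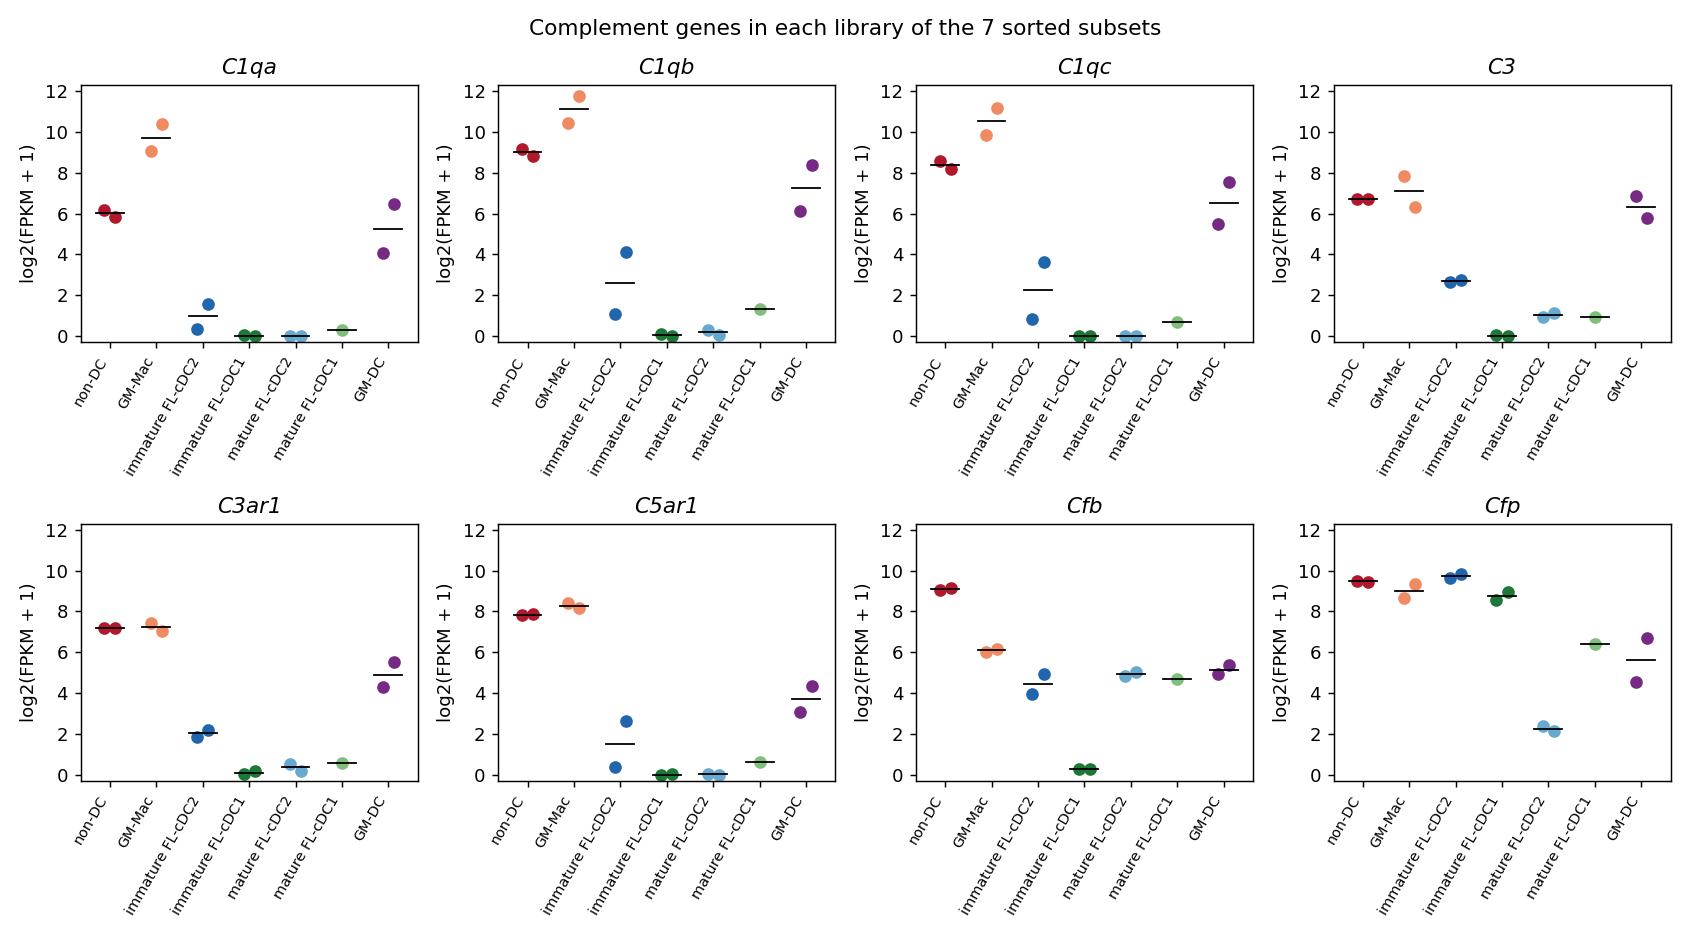
Levels of the 8 complement genes as log2(FPKM + 1) on the y axis in the 7 sorted subsets on the x axis, with a point for each library and a line at the mean of the transformed values. Of the genes, 7 are highest in non-DCs or GM-Macs, whereas Cfp is also high in both immature cDC subsets and lowest in mature FL-cDC2s.

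The proportion of the chains to each other differed between subsets, as read in FPKM, which is per transcript length. For C1qb over C1qc, the non-DC libraries had 1.5 and 1.57, the GM-Mac libraries 1.52 and 1.49, the immature FL-cDC2 libraries 1.4 and 1.47 and the GM-DC libraries 1.52 and 1.76. That ratio moved little, with the exception of 2.37 in the mature FL-cDC1 library, where C1qc had 38 reads. C1qb over C1qa, in contrast, was 8.11 and 8.04 in non-DCs, 2.63 and 2.6 in GM-Macs, and 4.27 and 3.81 in GM-DCs. The ratio was thus close within each of these subsets and apart between non-DCs and both GM subsets, with no overlap. In immature FL-cDC2s it was 3.95 (17 reads of C1qa) and 8.3, and in mature FL-cDC1s 7.11 (13 reads of C1qa). The ratio of deposited count to FPKM of C1qa, adjusted for library, stayed within 1.06 times its median over the 9 libraries with enough reads, so that the length behind its FPKM varied by no more than that. Culture and deposited table cannot be told apart in the comparison of non-DCs with GM-Macs, since the 3 subsets of the cDC2 gate share a table and the GM libraries lie in others.

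**Figure D2:**
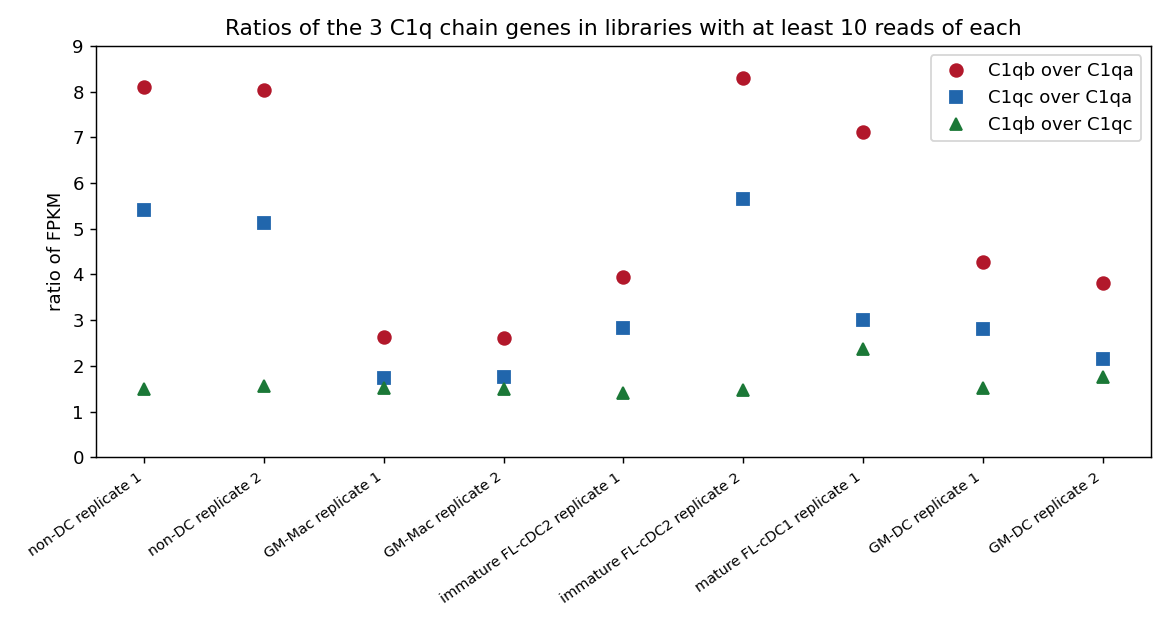
Ratio of FPKM between the C1q chain genes (y axis) in the libraries with at least 10 reads of each chain (x axis), for C1qb over C1qa, C1qc over C1qa and C1qb over C1qc. C1qb over C1qa lies near 8 in non-DCs and near 2.6 in GM-Macs, while C1qb over C1qc is 1.4 to 1.76 outside the mature FL-cDC1 library.

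C3 and the anaphylatoxin receptors. C3, the component on which all complement pathways meet, stood at 103 and 104 FPKM in the non-DC libraries, 226 and 80.2 in those of GM-Macs and 117 and 54.3 in those of GM-DCs. Immature FL-cDC2 libraries held 5.29 and 5.74, mature FL-cDC2 libraries 0.889 and 1.22, the mature FL-cDC1 library 0.91 and immature FL-cDC1 libraries 0.0276 and 0. The 3 highest subsets overlapped with each other in their order, and each was above every FL cDC library. C3ar1, the receptor of C3a, reached 145 and 147 FPKM in the non-DC libraries, 171 and 133 in those of GM-Macs and 18.5 and 44.4 in those of GM-DCs. Immature FL-cDC2 libraries held 2.66 and 3.57, mature FL-cDC2 libraries 0.466 and 0.155, the mature FL-cDC1 library 0.474 and immature FL-cDC1 libraries 0.0409 and 0.125. For this receptor the macrophage-like subsets overlapped and GM-DCs lay below both.

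C5ar1, the receptor of C5a, reached 223 and 236 FPKM in the non-DC libraries and 339 and 288 in those of GM-Macs. GM-DC libraries held 7.54 and 19.1, immature FL-cDC2 libraries 0.296 and 5.20, the mature FL-cDC1 library 0.561, and none of the 4 libraries of mature FL-cDC2s and immature FL-cDC1s more than 0.0439. It was thus above every DC library in both macrophage-like subsets, and GM-Macs were above non-DCs without overlap. C3ar1 over C5ar1 was 0.652 and 0.621 in non-DCs and 0.504 and 0.462 in GM-Macs, but 2.45 and 2.33 in GM-DCs, where C3ar1 was thus the higher receptor. This was not particular to GM-DCs. The ratio was 9 (39 reads of C5ar1) and 0.686 in the immature FL-cDC2 libraries and 0.844 in the mature FL-cDC1 library. Mean C3ar1 was also above mean C5ar1 in mature FL-cDC2s (0.311 against 0.0219 FPKM) and immature FL-cDC1s (0.0828 against 0.0117), with at most 7 reads of C5ar1 per library there. Hc, the mouse gene of C5, from which the ligand of C5ar1 is cut, did not exceed 0.240 FPKM in any library, and was highest in mature FL-cDC2s with 0.117 and 0.240 FPKM (40 and 85 reads).

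Factor B and properdin. Cfb, which supplies the protease of the alternative pathway convertase, was highest in non-DCs, at 534 and 573 FPKM, and at 64.2 and 70.5 in GM-Macs. GM-DC libraries held 29.8 and 40.1, mature FL-cDC2 libraries 27.6 and 31.4, the mature FL-cDC1 library 24.6, immature FL-cDC2 libraries 14.3 and 29.8 and immature FL-cDC1 libraries 0.239 and 0.205. GM-DCs, both mature FL-cDC subsets and immature FL-cDC2s thus lay within 14.3 to 40.1 FPKM, GM-DCs overlapping mature FL-cDC2s, and immature FL-cDC1s stood far below them. Cfp encodes properdin, which stabilises that convertase. Immature FL-cDC2 libraries held 802 and 905 FPKM of Cfp, non-DC libraries 720 and 702, GM-Mac libraries 400 and 659 and immature FL-cDC1 libraries 374 and 498. The mature FL-cDC1 library held 84.4, the GM-DC libraries 22.3 and 103 and the mature FL-cDC2 libraries 4.29 and 3.36. Each library of the mature FL-cDC subsets and of GM-DCs was thus below each library of the other 4 subsets, and Cfp ranked 43 by mean FPKM among the genes of immature FL-cDC2s but 7106 among those of mature FL-cDC2s.

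Over the 13 libraries, log2(FPKM + 1) of C1qb had a Pearson r of 0.98 with C3ar1, 0.97 with C5ar1, 0.94 with C3, 0.71 with Cfb and 0.40 with Cfp. Cfb and Cfp had r = 0.07. These describe the libraries, which share subsets, and carry no p-value.

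Non-DCs against the cDC2s of the same gate. Of the 8 genes, 7 were higher in non-DCs than in immature FL-cDC2s and none was lower at an adjusted p of 0.05 (edgeR quasi-likelihood test, Benjamini-Hochberg over 13242 genes), where 24% of the genes tested were higher and 23.6% lower. The median log2 fold change of the 8 was 6.27, against -0.01 over the genes tested. C5ar1 was 125-fold higher (log2 fold change 6.96, SE 1.23, edgeR adjusted p = 0.00273), C1qb 87.2-fold (6.45, SE 1.15, adjusted p = 0.00289), Cfb 38.3-fold (5.26, SE 0.41, adjusted p = 5.71e-05) and C3 28.9-fold (4.85, SE 0.25, adjusted p = 1.94e-05). C1qa, C1qc and C3ar1 were 83.1-, 83.3- and 71.8-fold higher. Cfp did not pass the test (log2 fold change 0.36, SE 0.21, edgeR adjusted p = 0.193), and its direction turned when library size alone was used (-0.27), a setting that moved the median of the genes tested in this comparison to -0.64 and the share of higher genes among those called from 50.4% to 24.9%.

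Against mature FL-cDC2s, 8 of 8 were higher in non-DCs (of the genes tested, 27.1% were higher and 26.4% lower), with a median log2 fold change of 10.51, or 9.90 with the genes at 0 reads placed at their bound, against -0.07 over the genes tested. C1qc was at least 8670-fold and C1qa at least 1690-fold higher, with a floor of 3 reads for each mature FL-cDC2 library. Cfp was 215-fold higher (log2 fold change 7.75, SE 0.28, edgeR adjusted p = 3.34e-06), C3 113-fold (6.82, SE 0.28, adjusted p = 3.34e-06), C3ar1 540-fold (9.08, SE 0.57, adjusted p = 1.25e-05) and Cfb, the smallest of them, 21.7-fold (4.44, SE 0.40, adjusted p = 6.58e-05). C5ar1 had 7 and 0 reads in mature FL-cDC2s and C1qb 16 and 4, against 31449 and 28340 and 34141 and 22854 in non-DCs. In bulk libraries, fewer cells of a type and less RNA per cell cannot be told apart.

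The 2 immature FL-cDC2 libraries differed in the genes that were low there. C1qa, C1qb, C1qc and C5ar1 had 17, 62, 44 and 39 reads in replicate 1 and 123, 1000, 677 and 751 in replicate 2. Relative to the non-DC mean, C1qb was 0.218% and 3.21%, beside a median over the 9 macrophage markers of 1.78% and 3.83% (0% to 21.4% and 2.32% to 21.5% over the 9), with the marker sum also higher in replicate 2. C3 was 5.12% and 5.55% and Cfb 2.58% and 5.39% of the non-DC mean. The part of macrophage-like cells in these values was not tested. The 7 calls held in each fit that left out 1 library.

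Maturation of FL-cDC2s. Between immature and mature FL-cDC2s, which were compared with each other in the same fit of 6 libraries and thus share libraries with the comparisons above, 7 of the 8 genes fell and none rose (of the genes tested, 24% fell and 22.5% rose), with a median log2 fold change of -6.03, or -4.92 with genes at 0 reads placed at their bound, against 0.00 over the genes tested. Cfp fell by 7.39 on the log2 scale, or 167-fold (SE 0.28, edgeR adjusted p = 6.45e-06), C3 fell by 1.97 (3.92-fold, SE 0.23, adjusted p = 2.76e-04) and C3ar1 fell by 2.91 (7.52-fold, SE 0.45, adjusted p = 0.00124). C1qb fell by 5.50 (45.3-fold, SE 1.29, edgeR adjusted p = 0.00952) and C5ar1 fell by 6.56 (94.1-fold, SE 1.55, adjusted p = 0.00987). C1qc was at least 104-fold and C1qa at least 20.2-fold lower in mature FL-cDC2s. Cfb stood apart, with a log2 fold change of 0.82 (SE 0.35, edgeR adjusted p = 0.09) that did not pass the test, although it passed without immature FL-cDC2 replicate 2 (1.52, adjusted p = 0.00183). C1qb did not pass without either mature FL-cDC2 library (adjusted p = 0.0513 and 0.0722) and C5ar1 without replicate 2 of them (0.0699). Cfp thus had the smallest adjusted p of the 8. With library size alone, the share of higher genes among all called moved from 48.4% to 31.2%, and the median of the genes tested to -0.41. The macrophage markers were lower as well, with sums of 998 to 1913 FPKM in immature and 48.5 to 49.7 in mature FL-cDC2s. Their median was 1.78% and 3.83% of the non-DC mean in immature and 0.136% and 0.0666% in mature FL-cDC2s. The part of macrophage-like cells in these changes was not tested.

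**Figure D3:**
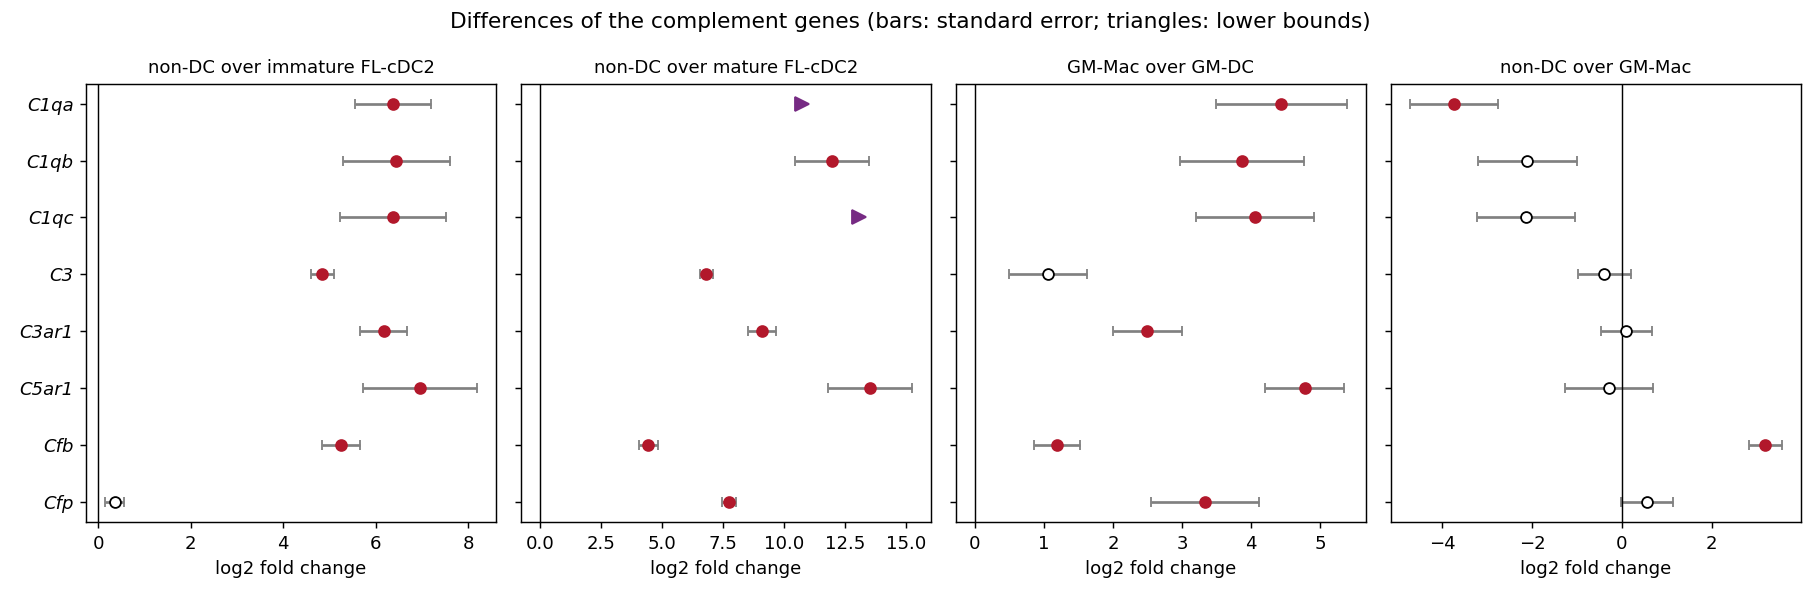
Log2 fold change (x axis) of each complement gene (y axis) in 4 comparisons, with bars for the standard error, filled points for genes past edgeR's adjusted p of 0.05, open points for the others, and triangles for lower bounds where a subset had 0 reads. The x axes differ in range. Non-DCs exceed immature FL-cDC2s for 7 genes with Cfp near 0, exceed mature FL-cDC2s for 8, and differ from GM-Macs in Cfb and C1qa.

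FL-cDC1s. In mature over immature FL-cDC1s, tested in a fit over the 13 libraries in which the lone mature library is assumed to vary like the others, 4 of the 8 were higher and none lower (of the genes tested, 12.6% were higher and 8.28% lower), with a median log2 fold change of 5.30, or 4.51 with C1qc at its bound, against 0.00 over the genes tested. Cfb was 105-fold higher (log2 fold change 6.71, SE 0.47, edgeR adjusted p = 1.34e-05), from 48 and 38 reads to 3830. C3 was 57.6-fold higher (5.85, SE 0.88, adjusted p = 0.00137), from 11 and 0 reads in the immature libraries, and did not pass with limma on log2(FPKM + 1), where the log2 difference was 0.91 (adjusted p = 0.258). C3ar1 (2.41, SE 0.76, edgeR adjusted p = 0.0474) and C5ar1 (5.46, SE 1.74, adjusted p = 0.0485) were close to the threshold and rested on 13 and 36 and on 0 and 4 reads in the immature libraries. Without immature FL-cDC1 replicate 1 neither passed (adjusted p = 0.146 and 0.156), and without replicate 2 C5ar1 did not pass (0.0961). Cfp had a log2 fold change of -2.46 (SE 0.80, edgeR adjusted p = 0.0523), its 84.4 FPKM lying below the 374 and 498 of the immature libraries. It passed with DESeq2 (-2.38, adjusted p = 0.00531) and with limma on log2(FPKM + 1) and log2(FPKM + 0.1) (-2.34 and -2.35, adjusted p = 0.0296 and 0.0306). Without immature FL-cDC1 replicate 1 its log2 fold change was -2.77. The mature FL-cDC1 library also held markers of other cells that were lower in immature FL-cDC1s: the 3 B cell markers summed to 25.6 FPKM against 0.591 to 0.862, the 11 neutrophil markers to 2.34 against 0.0554 to 0.391, and the median of the macrophage markers was 2.68% of the non-DC mean against 0.384% to 0.539%. Other values went the opposite way, since the sum of the macrophage markers was 1171 FPKM against 4040 to 4485, the highest of them was at 4.5% of the non-DC mean against 18.9% and 34%, and the 5 monocyte markers summed to 133 FPKM against 414 to 1023. The levels of C1qa, C1qb and C1qc there were 0.332%, 0.292% and 0.189% of the non-DC mean and that of Cfb 4.45%. The part of other cells in these values was not tested. The 2 subsets also lie in separate deposited tables, from which maturation cannot be told apart here.

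The maturation change differed between FL-cDC2s and FL-cDC1s for 7 of the 8 genes, in each case lower in the FL-cDC2 lineage (5% of the genes tested were lower and 1.03% higher). The difference of the log2 fold changes was -5.93 for Cfb (SE 0.56, edgeR adjusted p = 4.37e-04), -7.86 for C3 (SE 1.08, adjusted p = 0.00284), -5.35 for C3ar1 (SE 0.98, adjusted p = 0.0106) and -4.96 for Cfp (SE 0.91, adjusted p = 0.0107). The difference for C1qa was not past the threshold (edgeR adjusted p = 0.0602). For Cfp this sets a fall in FL-cDC2s beside a smaller log2 fold change of -2.46 in FL-cDC1s. The latter did not pass in the main fit but passed with DESeq2 and limma. For Cfb it sets a rise in FL-cDC1s beside a change in FL-cDC2s that did not pass. Fewer of the 8 passed without mature FL-cDC2 replicate 2, a fit in which fewer of all genes tested passed as well.

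Between the immature subsets, 7 of 8 genes were lower in immature FL-cDC1s than in immature FL-cDC2s (of the genes tested, 11.4% were lower and 8.9% higher), with a median log2 fold change of -6.77, or -6.49 with C1qc at its bound, against -0.02 over the genes tested. Cfb was 73.2-fold lower (log2 fold change -6.19, SE 0.44, edgeR adjusted p = 2.22e-05), C3 268-fold (-8.07, SE 0.87, adjusted p = 2.60e-04) and C3ar1 26.8-fold (-4.75, SE 0.71, adjusted p = 0.00153), and C1qc was at least 111-fold lower. Cfp did not pass (-0.50, SE 0.58, edgeR adjusted p = 0.58). Fewer of the 8 passed without immature FL-cDC2 replicate 2, the library with more C1q reads, and without immature FL-cDC1 replicate 2. Fewer of all genes tested passed in these fits as well. C1qa also did not pass without immature FL-cDC1 replicate 1, where more of all genes did. With library size alone, the share of higher genes among all called moved from 43.8% to 19%. These immature subsets lie in separate deposited tables, so that subset and table cannot be told apart here. The part of macrophage-like cells in the immature FL-cDC2 values was not tested.

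GM-BM culture. In GM-Macs over GM-DCs, 7 of 8 genes were higher and none lower (of the genes tested, 10.6% were higher and 8.71% lower), with a median log2 fold change of 3.60 against 0.05 over the genes tested. C5ar1 was 27.6-fold higher (log2 fold change 4.78, SE 0.57, edgeR adjusted p = 0.00434), C1qa 21.7-fold (4.44, SE 0.95, adjusted p = 0.0216), C1qc 16.7-fold (4.06, SE 0.86, adjusted p = 0.0213), C1qb 14.6-fold (3.87, SE 0.90, adjusted p = 0.0282), Cfp 10.0-fold (3.33, SE 0.78, adjusted p = 0.0286) and C3ar1 5.65-fold (2.50, SE 0.50, adjusted p = 0.0184). Cfb was 2.28-fold higher at the edge of the threshold (1.19, SE 0.33, edgeR adjusted p = 0.049), a call that was lost in 7 of 12 alternatives (adjusted p of 0.0104 to 0.463 over the 12), and C3 did not pass (1.06, SE 0.57, adjusted p = 0.241), its libraries of both subsets overlapping. Without GM-Mac replicate 2, which had the highest C1q levels, the C1q chains, Cfp and Cfb did not pass, although calls over all genes did not fall. The log2 fold changes of C1qa, C1qb and C1qc were then 3.52, 2.96 and 3.14. In the pair of replicate 1 libraries, which share a table, the log2 ratio was 4.57 for C1qb, 5.69 for C5ar1, 4.36 for Cfp and 1.15 for C3, each in the same direction, as values without a test. With library size alone, the share of higher genes among all called moved from 54.9% to 43.8%.

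GM-DCs were then compared with mature FL-cDC2s. In mature FL-cDC2s over GM-DCs, 7 of 8 were lower (of the genes tested, 12.9% were lower and 7.75% higher), with a median log2 fold change of -7.78, the same with genes at 0 reads placed at their bound, against -0.01 over the genes tested. C3 was 72.3-fold lower (log2 fold change -6.18, SE 0.73, edgeR adjusted p = 3.08e-04), C3ar1 90.9-fold (-6.51, SE 0.74, adjusted p = 2.39e-04) and Cfp 14.9-fold (-3.89, SE 0.65, adjusted p = 0.00211), and C1qc and C1qa were at least 2350-fold and at least 1070-fold lower. Cfb had a log2 fold change of -0.10 (SE 0.34, edgeR adjusted p = 0.893) that did not pass and turned to 0.17 without GM-DC replicate 2. In GM-DC replicates 1 and 2, C1qb was 2.79% and 13.6% of the GM-Mac mean and C5ar1 2.40% and 6.09%, beside a median of the macrophage markers of 6.23% and 16% (1.55% to 34% and 2.68% to 84.9% over the 9). C3 was 76.3% and 35.4% and Cfb 44.3% and 59.6%. The part of macrophage-like cells in the GM-DC values was not tested, and culture and deposited table cannot be told apart here.

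The difference between macrophage-like cells and mature DCs was larger in FL-BM culture than in GM-BM culture for 8 of 8 genes, where 5.31% of the genes tested were higher and 3.2% lower. C1qa and C1qc had 0 reads in mature FL-cDC2s, so that no size is given for them. On the mature DC side, 7 of the 8 were lower in mature FL-cDC2s than in GM-DCs (of the genes tested, 12.9% were lower and 7.75% higher). Between the macrophage-like subsets, 1 was higher and 1 lower in non-DCs (9.29% and 11.2% of the genes tested). The macrophage markers had medians of 6.23% and 16% of the GM-Mac mean in GM-DCs. In mature FL-cDC2s they had 0.136% and 0.0666% of the non-DC mean. The part of macrophage-like cells in this difference was not tested. Culture and deposited table cannot be told apart here either. The difference of the log2 fold changes, (non-DC over mature FL-cDC2) less (GM-Mac over GM-DC), was 6.61 for C3ar1 (SE 0.90, edgeR adjusted p = 0.00202), 5.79 for C3 (SE 0.89, adjusted p = 0.00372), 4.45 for Cfp (SE 0.85, adjusted p = 0.0114) and 3.28 for Cfb (SE 0.50, adjusted p = 0.00363). Fewer of the 8 passed without either mature FL-cDC2 library, either non-DC library or GM-DC replicate 2. Fewer of all genes tested passed in these fits as well. C1qa and C1qb also did not pass without GM-Mac replicate 1, where more of all genes did.

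The macrophage-like subsets of the cultures. Of the 8 genes, Cfb was higher in non-DCs than in GM-Macs and C1qa lower (9.29% of the genes tested were higher and 11.2% lower), and the median log2 fold change was -0.34 against -0.09 over the genes tested. Cfb was 9.12-fold higher in non-DCs (log2 fold change 3.19, SE 0.37, edgeR adjusted p = 6.06e-04). C1qa was 13.4-fold lower (-3.74, SE 0.98, edgeR adjusted p = 0.0273), and did not pass without non-DC replicate 1 (0.131), non-DC replicate 2 (0.175) or GM-Mac replicate 2 (0.102). C1qb (-2.11, SE 1.10, edgeR adjusted p = 0.198) and C1qc (-2.14, SE 1.09, adjusted p = 0.2) did not pass, although each GM-Mac library was above each non-DC library for both, and passed in a fit of these 4 libraries alone (0.0436 and 0.0442). C3 (-0.39, SE 0.58), C3ar1 (0.10, SE 0.57), C5ar1 (-0.29, SE 0.98) and Cfp (0.56, SE 0.58) did not pass. The direction of C3 turned without GM-Mac replicate 1 (0.44), and that of C3ar1 with library size alone (-0.06), where the share of higher genes among all called moved from 45.4% to 32.1%.

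Other complement genes. A list of 56 further genes of the system was read beside these 8, of which 54 were in the tables. Recognition and early cascade genes partly followed C1q. C1ra, the protease that C1q activates, was at 13.7 to 16.1 FPKM in non-DCs and 24.2 to 45.6 in GM-Macs, at 1.84 to 3.16 in GM-DCs, and did not exceed 0.481 in any FL cDC library. It was 63.8-fold higher in non-DCs than in immature FL-cDC2s (log2 fold change 6.00, SE 0.88, edgeR adjusted p = 0.00111) and 16.3-fold higher in GM-Macs than in GM-DCs (4.03, SE 0.45, adjusted p = 0.00392). C1s1, the next protease, was at 2.66 to 2.79 FPKM in non-DCs with 0 reads in immature FL-cDC2s, at least 225-fold higher. Reads of C1ra and C1rb, and of C1s1 and C1s2, close paralogs, may be shared. Fcna, a ficolin that recognises sugars, was at 4.37 to 14.4 FPKM in GM-Macs and at most 0.428 elsewhere, and was 47.7-fold lower in non-DCs than in GM-Macs (-5.58, SE 0.91, edgeR adjusted p = 0.00686).

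Regulators went several ways. Clu, clusterin, an inhibitor of the terminal complex, was at 155 to 266 FPKM in mature FL-cDC2s, 335 to 632 in GM-DCs and 25.0 in mature FL-cDC1s, within the 6.73 to 43.9 of GM-Macs, against at most 0.0583 in the immature libraries and 2.57 to 3.54 in non-DCs. It was 59.6-fold higher in mature FL-cDC2s than in non-DCs (log2 fold change of non-DC over mature FL-cDC2 -5.90, SE 0.52, edgeR adjusted p = 5.88e-05) and 16.6-fold higher in GM-DCs than in GM-Macs (-4.05, SE 0.86, adjusted p = 0.0217). Susd4, a complement inhibitor, was at 4.49 to 6.08 FPKM in GM-Macs and 2.89 to 7.31 in GM-DCs and had 0 reads in non-DCs, at least 164-fold lower than in GM-Macs.

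Among the receptors, Itgam and Itgb2, which form complement receptor 3 for the C3 fragment iC3b, fell from immature to mature FL-cDC2s, with log2 fold changes of -5.71 and -4.40 (SE 0.48 and 0.24, edgeR adjusted p = 5.13e-05 and 9.59e-06). Itgax, which pairs with Itgb2 in complement receptor 4 and encodes CD11c, fell by 4.44 (SE 0.26, edgeR adjusted p = 1.22e-05). It was at 94.6 to 95.8 FPKM in GM-DCs and 1.94 to 2.27 in mature FL-cDC2s. Cd93, Lrp1 and Scarf1, described as binding C1q, were higher in non-DCs than in immature FL-cDC2s by log2 fold changes of 2.70, 4.12 and 6.43 (SE 0.28, 0.27 and 0.68, edgeR adjusted p = 2.00e-04, 2.84e-05 and 2.19e-04), and in GM-Macs than in GM-DCs by 5.90, 3.63 and 2.00 (SE 0.65, 0.34 and 0.33, adjusted p = 0.0039, 0.00339 and 0.00973). C1qbp, also named for binding C1q, was lower in non-DCs than in immature FL-cDC2s, at 23.7 to 27.6 against 63.1 to 82.5 FPKM (-0.87, SE 0.24, edgeR adjusted p = 0.0179), and did not pass in GM-Macs over GM-DCs (-0.86, SE 0.33, adjusted p = 0.12). Its reads may be shared with Rpain, which overlaps it.

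By count, of 24 listed genes that passed the filter on low counts, 16 were higher and 1 lower in non-DCs than in immature FL-cDC2s, and 16 higher and 2 lower against mature FL-cDC2s, with medians of 2.15 and 3.85 on the log2 scale against -0.01 and -0.07 over the genes tested. Of all genes tested, 24% were higher and 23.6% lower in the former and 27.1% and 26.4% in the latter. From immature to mature FL-cDC2s 6 rose and 8 fell, beside 22.5% and 24% of all genes tested. Of 27 tested in GM-BM culture, 11 were higher and 1 lower in GM-Macs (median 2.00 against 0.05), beside 10.6% and 8.71% of all genes tested. Of 34 in the fit of 13 libraries, 1 was higher and 6 lower in non-DCs than in GM-Macs (9.29% and 11.2% of all genes tested), 3 higher and 3 lower in mature than in immature FL-cDC1s (12.6% and 8.28%), 2 higher and 4 lower in immature FL-cDC1s than in immature FL-cDC2s (8.9% and 11.4%), and none higher and 15 lower in mature FL-cDC2s than in GM-DCs (7.75% and 12.9%). For FL-cDC1 maturation and between the immature subsets, these shares were near those of all genes.

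**Figure D4:**
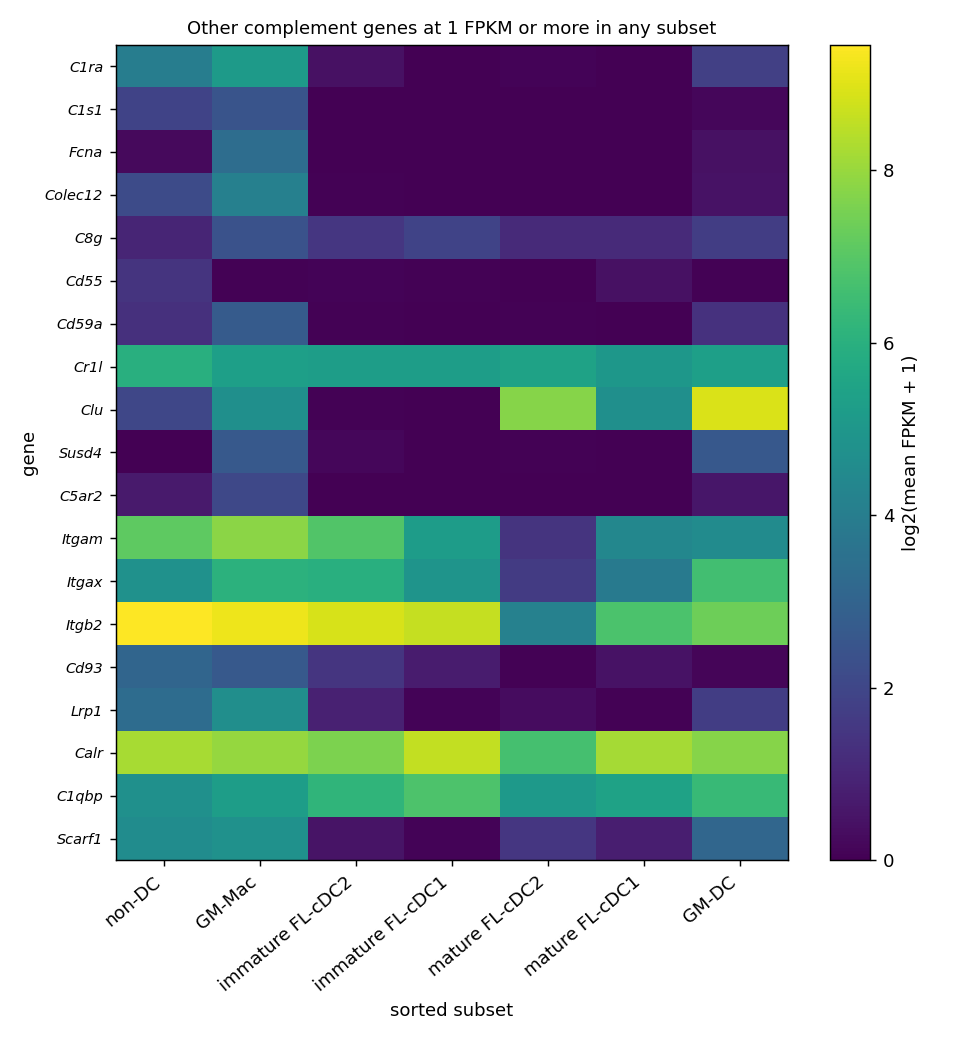
Mean level as log2(mean FPKM + 1), by colour, of 19 further complement genes (y axis) that reached 1 FPKM in the mean of any of the 7 sorted subsets (x axis). C1ra, Lrp1 and Scarf1 are high in non-DCs and GM-Macs, Clu in GM-DCs and mature FL-cDC2s, and Itgb2 in each subset other than mature FL-cDC2s.

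Genes with the most similar pattern were sought by Pearson r of log2(FPKM + 1) over the 7 subset means, among 7440 genes with at least 10 FPKM in any subset. C1qb and C1qc were nearest to each other (r = 0.999), followed for both by Cyp4f18 and Trem2 (0.994 to 0.998). C1qa was nearest to Ctsl (0.995), F10 and Mgst1 (0.994 each), genes that, like it, were highest in GM-Macs. C5ar1 was nearest to F13a1 (0.998), Mmp8 (0.997) and Pilra (0.996), C3 to Lpl (0.995), Ptgir and Sdc1 (0.994 each), and C3ar1 to Speg (0.995), Ak4 (0.994) and Sqrdl (0.993). Cfb had looser neighbours, Eaf1 (0.983), Twf1 and Aldh3a2 (0.976 each). Cfp was nearest to AB124611 (0.991), Myo1f (0.985) and Entpd1 (0.983). With 7 points many genes come close, and none of the 24 neighbours was kept with Spearman's rho.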

How the data were processed

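RNA of 7 sorted subsets was sequenced in 13 libraries. The authors deposited 6 tables with a whole-read count, not normalized, and an FPKM value per gene and library on mm10. Submitters' processing notes list StringTie 1.3.4d, HTSeq, STAR 2.6.0c, Trimmomatic and bcl2fastq 2.20.0, whereas the study's methods name HISAT as the aligner, which is not settled here, and for strand settings the sources used here give nothing. As cDNA was amplified and molecular identifiers were not used, a floor stands for counting error alone.

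Levels are the deposited FPKM. For the tests, edgeR 4.0.16 in R 4.3.3 was run on the counts (filterByExpr, TMM, quasi-likelihood test, Benjamini-Hochberg over all genes tested, threshold 0.05) in a fit of the 6 cDC2-gated libraries (13242 genes), the 4 GM libraries (13083) or all 13 (14936), with a biological coefficient of variation of 25.8%, 38.3% and 35.9%. All 8 members passed the filter in each fit. Standard errors were derived from the fold change and the F statistic. The test was checked on simulated data, with a spread below that of the fits of 4 and 13 libraries. That check did not cover changes in genes near 0 reads or contrasts with the lone mature FL-cDC1 library. Where a subset had 0 reads, a bound was set with 3 reads per library. Alternatives used DESeq2 1.42.0, limma 3.58.1 on log2(FPKM + 1) or log2(FPKM + 0.1), library size alone, other filters, other sets of libraries, a replicate block and each library left out. Gene coordinates and promoters come from RefSeq GRCm38.p6 (24462 of 24532 genes matched), and Python 3.11.15 was used for levels and figures.

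The members, lists, tests and the rule for named genes (the 8 members, further complement genes past the test with at least 1 FPKM in the higher subset, Hc, and the 3 nearest genes by r) were chosen with earlier results of these data known. No library was left out of the main tests. Some genes of the lists are not reported here by name.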

Additional observations from a re-analysis of the deposited data

Results flagged for a closer look

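The change from immature to mature cells differed between FL-cDC2s and FL-cDC1s for 7 of the 8 genes by the test of the difference itself in edgeR's fit of 13 libraries, with adjusted p of 4.37e-04 for Cfb, 0.00284 for C3, 0.0106 for C3ar1, 0.0107 for Cfp, 0.0116 for C5ar1, 0.0193 for C1qb and 0.0212 for C1qc. It rests on a single mature FL-cDC1 library and on subsets from separate tables.

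The difference between macrophage-like cells and mature DCs was larger in FL-BM culture than in GM-BM culture for 8 of 8 genes by the same kind of test, with edgeR adjusted p of 0.00202 for C3ar1, 0.00363 for Cfb, 0.00372 for C3, 0.0114 for Cfp, 0.0154 for C5ar1, 0.0198 for C1qc, 0.0217 for C1qb and 0.0257 for C1qa. Both sets of differences use the mature FL-cDC2 libraries, where C1qa and C1qc had 0 reads, and culture and table cannot be told apart in the latter.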

How the results depend on the processing

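The number of the 8 genes past the threshold kept within 1.5 times its main value under the alternatives that kept all libraries, with these exceptions. For non-DCs over GM-Macs it rose from 2 to 4 with those 4 libraries alone. For mature over immature FL-cDC1s it rose from 4 to 7 with DESeq2 and fell to 2 with limma on log2(FPKM + 1), which also gave 3 of 7 for immature FL-cDC1s over immature FL-cDC2s and 4 of 7 for the difference in maturation. The further complement genes called went from 7 to 12 (limma, pseudocount 1) and 11 (0.1) for non-DCs over GM-Macs, and from 6 to 3 (limma, pseudocount 1) for mature over immature FL-cDC1s. Of the 24 neighbours by r, 11 were kept over 13 libraries and 0 with Spearman's rho. Over all genes tested, the calls moved by over 1.5 times for immature FL-cDC1s over immature FL-cDC2s (3034 to 4593 with DESeq2 and 1912 with the 2 subsets alone), the difference in maturation (901 to 1945 with DESeq2, 1532 and 1466 with limma) and the difference between cultures (1271 to 2533 with DESeq2 and 1932 with limma at pseudocount 1). Library size alone moved the median log2 fold change of the genes tested to as low as -0.64 (non-DCs over immature FL-cDC2s). Most fits that left out 1 library also called fewer of all genes than the main fits, which bears on the counts of such fits given below. The cause of these changes was not tested.

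Directions turned for Cfp in non-DCs over immature FL-cDC2s (-0.27 with library size alone, -0.26 with limma at either pseudocount), C3ar1 in non-DCs over GM-Macs (-0.06 with library size alone, -0.05 with limma at either pseudocount, -0.01 without GM-Mac replicate 2, 0.21 without replicate 1), C3 in the same comparison (0.44 without GM-Mac replicate 1, -0.91 without replicate 2) and Cfb in mature FL-cDC2s over GM-DCs (0.17 without GM-DC replicate 2, -0.32 without replicate 1), none of them past the threshold in the main test.

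Leaving out 1 library at a time moved several counts by over 1.5 times and gave counts of 7 for non-DCs over immature FL-cDC2s, 8 for non-DCs over mature FL-cDC2s, 5 to 8 for mature over immature FL-cDC2s, 2 to 7 for GM-Macs over GM-DCs, 1 to 2 for non-DCs over GM-Macs, 3 for mature over immature FL-cDC1s, 3 to 7 for immature FL-cDC1s over immature FL-cDC2s, 7 for mature FL-cDC2s over GM-DCs, 4 to 8 for the difference in maturation and 3 to 8 for the difference between cultures. For the further complement genes it gave 13 to 17 for non-DCs over immature FL-cDC2s, 15 to 18 for non-DCs over mature FL-cDC2s, 12 to 13 for mature over immature FL-cDC2s, 10 to 13 for GM-Macs over GM-DCs, 1 to 6 for non-DCs over GM-Macs, 3 to 6 for mature over immature FL-cDC1s, 2 to 5 for immature FL-cDC1s over immature FL-cDC2s and 8 to 11 for mature FL-cDC2s over GM-DCs.

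Replicate numbers did not pair the libraries in a uniform way: of 15 correlations of deviations between same-numbered libraries (-0.459 to 0.649), 5 were above 0.1. The correlations among GM-Macs, immature FL-cDC1s and mature FL-cDC2s were 0.443 to 0.649, so that deviations shared by some subsets were present. Their source was not tested. With a replicate block, possible in 8 comparisons, the counts of members stayed at 7, 8, 7, 7, 2, 7, 7 and 8, and 0 of 64 member results crossed the threshold. No paired analysis was possible for the comparisons with the mature FL-cDC1 library because its label carries no replicate number. Reads limit the genes near 0 in immature FL-cDC1s and mature FL-cDC2s.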
